A study of Mus musculus with 15 samples.

Results

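Ubiquitin and proteasome genes were followed through chromatin accessibility in mouse pancreatic islets. Members were the peaks whose gene name, in the authors' annotation, began with Psma, Psmb, Psmc, Psmd, Psme, Ube2 or Ube3, with Usp, Cul or Cops followed by a digit, or was Nedd8. They came to 105 regions with 84 gene names, of 13858 regions listed over 4 deposited comparisons. Of the 160 protein-coding genes in RefSeq that meet the name rule, 83 had a listed peak.

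ATAC-seq, in which the transposase Tn5 cuts and tags open chromatin, was done on islets of 15 male mice aged 3 months. The groups were 4 βKO mice after partial pancreatectomy (PPx), 3 βKO mice before PPx, 4 control mice after PPx and 4 control mice before PPx. PPx is an operation that takes out a piece of the pancreas. Every mouse carried Arid1aFl/Fl, floxed alleles of a subunit gene of the SWI/SNF (BAF) complex, which moves nucleosomes. Every mouse also carried MIP-rtTA, whose insulin promoter places a doxycycline-dependent activator in β cells. βKO mice alone carried TRE-Cre as well, which makes Cre under that activator while doxycycline is present. Doxycycline was given at 1 g/L in the water for 2 weeks, PPx came 1 week after it was stopped, and islets of operated mice were collected 6 days later. Other islet cells stay in the samples, so fewer cells of a type and less accessibility per cell cannot be told apart.

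Ubiquitin is passed from an E1 enzyme to an E2 enzyme and, with an E3 ligase, to a target protein, and deubiquitinases remove it. Chains of ubiquitin can send a protein to the proteasome, a barrel of α and β subunits (the 20S core) capped by a 19S regulator whose ATPases unfold the target. The largest family of E3 ligases is built on cullins, which are switched on by attachment of the ubiquitin-like protein NEDD8 and switched off when the COP9 signalosome removes it. In β cells, which make large amounts of insulin, this system clears misfolded proteins.

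The Arid1a gene itself had 1 listed peak, in exon 9 of 20. After PPx its log2 concentration in the authors' deposited table was 4.04 in βKO islets and 0.40 in control islets. Before PPx the authors' deposited table gave it 5.49 in βKO islets and 1.21 in control islets. The peak was called in 3 of 4 βKO libraries and 0 of 4 control libraries after PPx, so it parted the genotypes as labelled. Whether the peak lies in the floxed stretch is not given in the sources used here, so it is no check of the deletion. Of 9 β cell marker genes, 5 had a listed peak after PPx, with 10 peaks in all. Of these 10 peaks 2 were higher in βKO islets, at Ins1 (change 1.49) and Nkx6-1 (1.05), where 9.88% of all peaks were. A distal peak named for the δ cell marker Sst was also higher (1.12), and none of the 3 listed α cell markers passed. Among 21 acinar, duct, endothelial, stromal and leukocyte markers, 6 genes had a peak after PPx and none passed the threshold in the comparison of genotypes. A distal peak named for the leukocyte marker Csf1r was higher after PPx than before in βKO islets, at 4.03 against 2.02 in the authors' deposited table. It was 1 of 5 such genes with a peak in that comparison. Of 4 β cell markers with a peak there, 1 was also higher, Slc30a8, where 7.44% of all peaks were. The part of other cell types in the results was not tested.

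Each comparison gives, for a peak of 601 bp, the level of each group as a log2 concentration, the log2 of a mean normalized read count. All peaks have 1 width, so levels of different genes can be set side by side. Changes are on the log2 scale, as βKO minus control or after minus before PPx. A peak is called higher or lower where the authors' FDR was under 0.05. Library values and depths are not analysed here, and the scatter among mice enters only by way of the deposited p-values. Every listed peak had been called in at least 2 libraries of its comparison.

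After PPx, accessibility at ubiquitin and proteasome genes was called higher in βKO islets, relative to control, at 17 of 102 member peaks and lower at none. The called peaks lay at 4 proteasome genes, 3 Ube2 genes, 2 Ube3 genes, 7 Usp genes and Cops7b. Among all 13111 peaks, 9.88% were called higher and 0.0839% lower, so most of the table leaned toward βKO. The median change was 0.67 over the members and 0.61 over all peaks. Of the members, 91.2% had a higher value in βKO islets, against 90.3% of all peaks.

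Part of the gap between 16.7% of members called and 9.88% of all peaks went with where the members lie. Promoter peaks, within 3 kb of a start, made up 79.4% of members and 61.4% of all peaks. Among promoter peaks, 15 of 81 members (18.5%) and 14.3% of all peaks were called higher. Outside promoters, 2 of 21 members were called higher, in introns of Ube3c and Usp6nl, against 2.81% of all such peaks. At the call rates of other peaks in the same of 10 concentration bins and the same annotation class, 12.0 of the 102 members would be called. The members' changes exceeded the medians of such like peaks by a median of 0.035, and this excess was not tested. The median standard error of a single member's change, 0.382, does not measure the spread of that median.

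No member passed a test against the table-wide shift. When each change was taken relative to the table's median and tested with a standard error derived from the authors' p-value, 0 of 102 members passed an adjusted p of 0.05, against 0.397% of all peaks. The smallest adjusted p among members was 0.484, at an intronic Usp45 peak, and Psmd1 had 0.510. The calls below therefore say that a peak was higher in βKO islets, and not that it rose more than peaks in general.

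**Figure D1:**
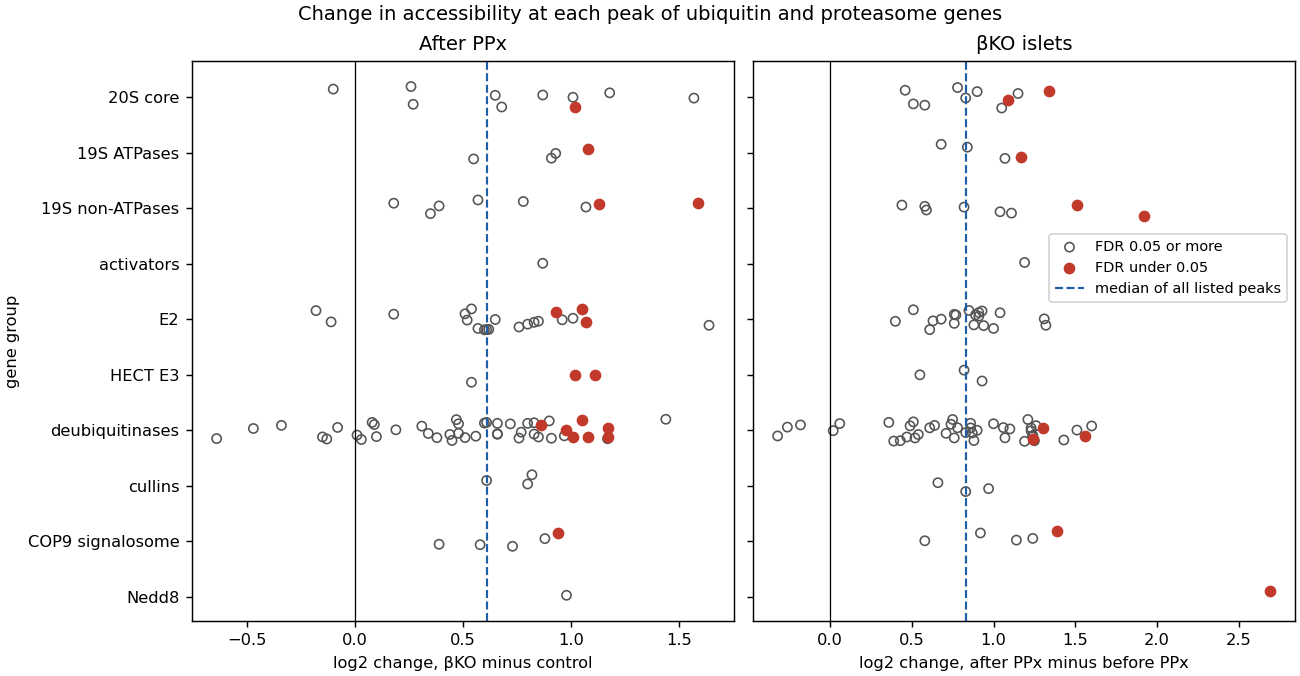
Log2 change at each member peak, by gene group, between βKO and control islets after PPx (left) and between βKO islets after and before PPx (right). Filled points passed the authors' FDR of 0.05 and the dashed line is the median of all listed peaks, 0.61 on the left and 0.83 on the right. Filled points lie on the right of the dashed lines in several gene groups, with Psmd1 at 1.59 on the left and Nedd8 at 2.69 on the right.

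The proteasome had 23 peaks at 22 genes, of which 4 were called higher in βKO islets after PPx. Their median change was 0.87, which was 0.20 above like peaks. At the call rates of like peaks 2.51 of the 23 would be called. In the 20S core 1 of 10 peaks passed, among the 19S ATPases 1 of 4, and among the other 19S subunits 2 of 8.

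Psmd1 encodes the largest scaffold subunit of the 19S base. Its promoter peak, chr1:86064228-86064828 on mm10, had a log2 concentration of 4.68 in βKO islets and 3.09 in control islets in the authors' deposited table for mice after PPx. The change of 1.59, a ratio of 3.01, had an FDR of 0.0154, the smallest among members. The authors had called this peak in 4 of 4 βKO libraries and in 0 of 4 control libraries. It was thus listed through βKO libraries alone, which by itself places βKO islets higher, as at 28.4% of members and 28.4% of all peaks of this comparison.

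Psmc6, an ATPase of the 19S ring, had 5.97 in βKO islets and 4.89 in control islets in the authors' deposited table, a change of 1.08 with an FDR of 0.0286. Psmb1, a β subunit of the core without a cutting site of its own, had 5.28 in βKO islets and 4.26 in control islets in the authors' deposited table (change 1.02, FDR 0.0308). Psmd6, a subunit of the 19S lid, had 4.55 in βKO islets and 3.42 in control islets in the authors' deposited table (change 1.13, FDR 0.0368). All 3 were about 2-fold higher in βKO islets, with ratios of 2.11, 2.03 and 2.19.

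At the other end of the proteasome genes stood Psmb9, a core subunit of the immunoproteasome made in response to interferon. It had 3.45 in βKO islets and 3.55 in control islets in the authors' deposited table, a change of -0.10 with an FDR of 0.880. The lowest of the 19S ATPases was Psmc1, at 0.55, and the lowest of the other 19S subunits was Psmd3, at 0.18, and neither passed the threshold. The activator Psme4, which caps the core in place of the 19S regulator, had 4.39 in βKO islets and 3.52 in control islets in the authors' deposited table, with an FDR of 0.0689.

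Of the called proteasome genes, the promoters of Psmd1, Psmc6 and Psmd6 are printed to show the sequence under these peaks, and those of Psme4 and Psmb5 because they hold the antioxidant response element TGACNNNGC, bound by NRF factors that drive proteasome genes. Nedd8 was added after its values were seen. Each line gives the 250 bases before the start, 5′ to 3′ along the gene, from RefSeq on GRCm38.p6, in lower case. Capitals mark matches on either strand to TGACNNNGC or to the ETS motif CCGGAAG, which did not overlap each other here. The coordinates are chr1:86064369-86064618 (+) for Psmd1, chr14:45329574-45329823 (+) for Psmc6, chr14:14120946-14121195 (-) for Psmd6, chr11:30771525-30771774 (+) for Psme4, chr14:54617996-54618245 (-) for Psmb5 and chr14:55671881-55672130 (-) for Nedd8.
Psmd1: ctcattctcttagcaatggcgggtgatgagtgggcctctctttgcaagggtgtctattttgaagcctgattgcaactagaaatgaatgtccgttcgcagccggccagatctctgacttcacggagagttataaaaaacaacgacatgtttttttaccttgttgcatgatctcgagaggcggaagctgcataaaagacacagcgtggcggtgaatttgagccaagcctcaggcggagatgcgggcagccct
Psmc6: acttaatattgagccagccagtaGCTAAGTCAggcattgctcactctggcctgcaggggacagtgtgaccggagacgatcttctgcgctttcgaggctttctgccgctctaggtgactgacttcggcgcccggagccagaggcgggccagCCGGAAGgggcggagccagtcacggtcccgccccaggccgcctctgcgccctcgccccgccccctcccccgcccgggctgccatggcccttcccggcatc
Psmd6: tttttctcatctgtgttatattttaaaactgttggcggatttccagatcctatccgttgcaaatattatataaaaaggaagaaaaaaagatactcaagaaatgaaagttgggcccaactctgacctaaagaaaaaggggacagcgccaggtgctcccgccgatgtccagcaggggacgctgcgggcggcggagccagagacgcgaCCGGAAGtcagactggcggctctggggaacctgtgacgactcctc
Psme4: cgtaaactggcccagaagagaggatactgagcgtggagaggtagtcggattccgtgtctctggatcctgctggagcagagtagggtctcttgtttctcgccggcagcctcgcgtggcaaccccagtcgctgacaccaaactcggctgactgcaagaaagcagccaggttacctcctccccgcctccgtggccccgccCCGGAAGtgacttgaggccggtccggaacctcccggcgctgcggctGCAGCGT
Psmb5: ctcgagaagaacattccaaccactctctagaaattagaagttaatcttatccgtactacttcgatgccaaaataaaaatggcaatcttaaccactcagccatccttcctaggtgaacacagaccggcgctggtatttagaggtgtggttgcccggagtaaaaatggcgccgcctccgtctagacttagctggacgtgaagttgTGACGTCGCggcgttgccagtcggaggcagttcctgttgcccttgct
Nedd8: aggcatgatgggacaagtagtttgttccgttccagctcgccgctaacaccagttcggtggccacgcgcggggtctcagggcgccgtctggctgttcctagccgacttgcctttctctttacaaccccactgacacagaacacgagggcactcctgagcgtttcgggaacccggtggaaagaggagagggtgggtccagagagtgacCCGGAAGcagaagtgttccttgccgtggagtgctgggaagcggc

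Psmd1, with the largest change of the 4 called proteasome genes, held neither motif in these letters. Psmc6 held both, Psmd6 and Nedd8 the ETS motif only, and Psmb5 the antioxidant response element only. In Psme4 the motif TGACNNNGC lies on the reverse strand, and its first 2 letters fall after the start and are not printed. Of 59 member promoters in the RefSeq table with a start in or near a listed peak, 20 (33.9%) held CCGGAAG, against 8.86% of all 32851 promoters. TGACNNNGC was in 13 (22.0%) of them and in 12.4% of all promoters. CCAAT, read on both strands, was in 23.7% of member promoters and 37.4% of all, and the nuclear respiratory factor motif GCATGCG in 3.39% and 3.58%. All promoters include genes with no listed peak, and base composition was not matched. Of 9 member promoters of called peaks, 4 held TGACNNNGC and 2 held CCGGAAG. A match is a match of letters and says nothing of binding.

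Most of the promoter peaks that could be checked sat over the start of their gene. Of 81 member promoter peaks, 65 had a RefSeq promoter of their gene, and 54 covered the gene's own start. Over all 65 the centres lay a median of 50 bases upstream (quartiles at -116 and 37 from the start). Some lay far off, as at Usp29, with 229633 bases between the centre and the nearest RefSeq start. At 10 of the 65 (15.4%) the start of another gene lay in the same peak. Among all promoter peaks of placed chromosomes, 11.4% held the starts of 2 or more genes. That share was counted in another way, so it is no background for the members. Cops7b shares its peak with Pde6d, Usp20 with BC005624, Nedd8 with Gmpr2 and Psmb9 with Tap1, so their values cannot be told apart from those of the neighbour. A Ube2cbp promoter peak that was not called (change 0.83) held the start of Dop1a and not that of Ube2cbp.

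Among the Ube2 genes, 3 of 21 peaks were called higher after PPx, where the rates of like peaks gave 3.17. Ube2ql1, a gene of an E2-like protein, had 4.94 in βKO islets and 3.87 in control islets in the authors' deposited table (change 1.07, FDR 0.0345). Ube2w, whose enzyme attaches ubiquitin to the amino terminus of proteins, had 5.36 in βKO islets and 4.42 in control islets in the authors' deposited table (change 0.93, FDR 0.0393). Ube2cbp, an older name of a gene that encodes a ubiquitin ligase rather than an E2, had 5.22 in βKO islets and 4.17 in control islets in the authors' deposited table (change 1.05, FDR 0.0424). The lowest of this group was an intronic peak of Ube2h, at 3.55 in βKO islets and 3.73 in control islets in the authors' deposited table, with a change of -0.18 and an FDR of 0.718.

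Both listed Ube3 genes, which encode HECT ligases, had a called peak. Of their 3 peaks 2 were called, where the rates of like peaks gave 0.587. Ube3a, the ligase gene whose loss in neurons causes Angelman syndrome, had 6.43 in βKO islets and 5.41 in control islets in the authors' deposited table (change 1.02, FDR 0.0320). Ube3c lengthens chains on proteins already at the proteasome. The called Ube3c peak lay in intron 13 of 22, with 4.94 in βKO islets and 3.82 in control islets in the authors' deposited table (change 1.11, FDR 0.0393). Its promoter had 4.60 in βKO islets and 4.06 in control islets in the authors' deposited table, with an FDR of 0.183. The intronic peak thus passed and the promoter peak of the same gene did not, and the difference between them was not tested.

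The Usp genes were the largest group, with 46 peaks, of which 7 were called higher and none lower, where the rates of like peaks gave 4.62. Usp5, which takes apart free ubiquitin chains, had 6.33 in βKO islets and 5.16 in control islets in the authors' deposited table (change 1.17, FDR 0.0265). Usp33, of a deubiquitinase bound by the von Hippel-Lindau protein, had 4.45 in βKO islets and 3.28 in control islets in the authors' deposited table (change 1.17, FDR 0.0354). Usp53, of a family member found at cell junctions, had 6.13 in βKO islets and 5.08 in control islets in the authors' deposited table (change 1.05, FDR 0.0311). Usp5 and Usp53 were called in all 8 libraries, whereas Usp33 was called in 3 of 4 βKO libraries and in 0 of 4 control libraries.

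Usp6nl meets the rule by spelling only, since it encodes an activator of Rab GTPases. Its peak in intron 2 of 14 had 4.31 in βKO islets and 3.23 in control islets in the authors' deposited table (change 1.08, FDR 0.0484). Without Usp6nl and the pseudogene name Ube2d-ps, 16 members were called. The other called Usp peaks, Usp34, Usp1 and Usp20, were named after their values were seen, with changes of 0.98, 1.01 and 0.86.

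Some Usp peaks had lower values in βKO islets, and none of these passed the threshold. An intronic Usp45 peak (intron 16 of 17) had 2.96 in βKO islets and 3.60 in control islets in the authors' deposited table, a change of -0.64 with an FDR of 1. The other Usp45 peaks, both at promoters, had changes of 0.76 and 0.91. Usp38 showed the same split, with -0.47 at a distal peak and 0.77 at its promoter. In all, 13 genes had several positions, and within 1 gene the values could spread widely, as over 5 Usp25 positions (-0.13 to 0.85), 4 Usp6nl positions (0.08 to 1.08) and 2 Usp13 positions (0.34 and 1.44). The positions of Ube2cbp (0.83 to 1.05), Usp12 (0.44 and 0.60) and Usp18 (0.48 and 0.56) were close. Those of Psma6 (0.27 and 0.65), Ube2w (0.18 and 0.93), Usp14 (-0.15 and 0.66) and Usp37 (0.48 and 0.72) lay in between.

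No cullin peak passed, where the rates of like peaks gave 0.354 of 3. All 3 had values higher in βKO islets, as 90.3% of all peaks did, with changes of 0.82 at Cul2, 0.80 at Cul3 and 0.61 at Cul4b. Cops7b, a subunit gene of the COP9 signalosome, had 5.63 in βKO islets and 4.69 in control islets in the authors' deposited table (change 0.94, FDR 0.0421). It was 1 of 5 Cops peaks called, where the rates of like peaks gave 0.644, and the lowest, Cops8, had a change of 0.39. Nedd8 had 4.44 in βKO islets and 3.46 in control islets in the authors' deposited table, a change of 0.98 with an FDR of 0.0585, so it missed the threshold.

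Members with an FDR of 1 were among the weaker peaks. The authors' FDR was 1 at 29 members, and their median log2 concentration was 3.26, against 4.25 at the other 73. Of these, 3 had a p-value no larger than 0.00693, the largest p of a called member: Usp13, Psmb4 and Ube2q2, with changes of 1.44, 1.57 and 1.64. They are named after their values were seen, and each was called in 0 of 4 control libraries. A further 8 members had an FDR between 0.05 and 0.06. Of the 102 members, 29 (28.4%) were called in no control library and so entered the table through βKO libraries, and Psmd1 and Usp33 are among them.

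Ubiquitin pathway genes outside the name rule were read from 5 lists. Of 109 listed genes, 63 had a peak after PPx, with 75 peaks in all. Of these peaks 14, at 13 genes, were called higher in βKO islets and none lower. Of all peaks 9.88%, and of promoter peaks 14.3%, were called higher. The lists' median change was 0.73, which was 0.06 above like peaks. Among partners of the proteasome, Rad23b, a shuttle for ubiquitinated proteins, had 6.21 in βKO islets and 5.15 in control islets in the authors' deposited table (FDR 0.0279). Sem1, a small lid subunit, and Txnl1, a thioredoxin-like protein of the proteasome, had changes of 0.91 and 0.96. Among cullin partners, Dcun1d1, which helps to attach NEDD8 to cullins, had 4.20 in βKO islets and 2.50 in control islets in the authors' deposited table (FDR 0.0268). Its relative Dcun1d4 and the F-box gene Fbxw11 had changes of 0.89 and 0.86. Among other ligases, Marchf6 and Huwe1 were higher, with changes of 1.41 and 1.12. Of other deubiquitinases, Tnfaip3, a brake on NF-κB signalling, had 2 called peaks (1.05 and 0.87) and Uchl3 had 1 (0.91). None of 5 ubiquitin and E1 genes passed, with a median change of 0.61.

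Between the genotypes before PPx, no member passed the threshold. In this comparison 63 member peaks at 53 genes were listed, and 0 were called, where 0.0128% of 7826 peaks were called higher and 0% lower. At an unadjusted p under 0.05, 2 of 63 members were higher and 1 lower in βKO islets, where 66 of 7826 peaks were higher and 180 lower. Relative to the table's median 0 members passed, against 0.0128% of all peaks. The median change was 0.09 over members and 0.00 over all peaks. Of the members, 65.1% had a higher value in βKO islets, against 48.9% of all peaks. The members' changes exceeded the medians of like peaks by a median of 0.11, and this excess was not tested.

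The member with the smallest p before PPx was Psmd1, and its values went opposite to those after PPx. Its promoter had 2.93 in βKO islets and 4.08 in control islets in the authors' deposited table, a change of -1.15 with an unadjusted p of 0.0231 and an FDR of 1. It was called in 0 of 3 βKO libraries and 2 of 4 control libraries. Ube2w had 4.76 in βKO islets and 3.93 in control islets in the authors' deposited table (change 0.83, p 0.0355, FDR 1). An intronic Usp25 peak had 3.83 in βKO islets and 2.81 in control islets in the authors' deposited table (change 1.02, p 0.0420, FDR 1).

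Before PPx the 6 non-ATPase subunits of the 19S regulator had a median change of -0.455, with lower values in βKO islets at 5, of which 1 had an unadjusted p under 0.05. All 6 are promoter peaks, and 54.4% of all promoter peaks of this comparison had higher values in βKO islets. The median was 0.42 below that of like peaks, and differences between gene groups were not tested. The median standard error of a single peak's change, 0.469, does not measure the spread of that median. The values were -1.15 at Psmd1, -0.68 at Psmd3, -0.62 at Psmd8, -0.29 at Psmd4, -0.19 at Psmd5, an assembly factor, and 0.39 at Psmd14, which cuts ubiquitin from proteins as they enter. By median the rest of the proteasome did not go the same way, with 0.375 at 2 peaks of the 20S core, 0.03 at 3 ATPase peaks and 0.05 at 2 activator peaks. Among the ATPases Psmc4 had -0.35 and the other 2 had 0.03 each. Over all 13 proteasome peaks the median was 0.01, and Ube2 and Usp genes had medians of 0.23 each. The 3 Cops peaks had a median of -0.20, with a higher value in βKO islets at 1 of them.

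**Figure D2:**
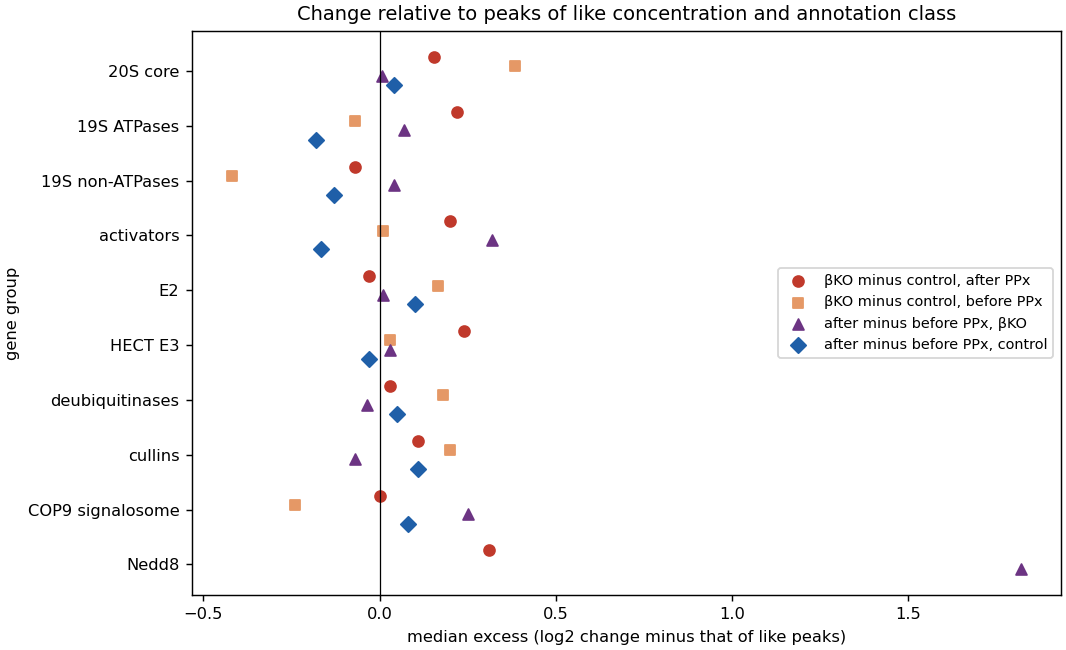
Median change of each gene group minus the median of other peaks of like concentration and annotation class, on the log2 scale, in the 4 comparisons (marker shapes). Most medians lie close to 0, with Nedd8 at 1.82 in βKO islets after against before PPx and the 19S non-ATPases at -0.42 between genotypes before PPx as the points furthest out. Groups hold 1 to 46 peaks, and these medians carry no test.

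Whether the genotype change itself differed after and before PPx was asked at peaks listed in both genotype comparisons, which share no library. There were 62 member pairs among 7504 matched peaks. The interaction, the change after PPx minus the change before, was above 0 at 58 of the 62 member pairs (93.5%) and at 92.2% of all matched peaks. Its median was 0.675 over members and 0.64 over all. After adjustment over all matched peaks 1 member passed, Psmd1, where 0.0267% of all peaks did.

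At Psmd1 the interaction was 2.74 with a standard error of 0.627 and an adjusted p of 0.0467 (approximate normal test, Benjamini-Hochberg). Psmd1 was listed after PPx through βKO libraries alone and before PPx through control libraries alone, which favours opposite signs of the changes, so the test is not independent of the listing. Of 7504 matched peaks 67 were listed in this way, Psmd1 alone among members. Its p ranked second among these peaks. The first was Pgk1, whose p-value of 1.0 after PPx stands beside a change of -2.08 in the authors' deposited table. Without peaks of such conflict, a choice made after seeing the data, the adjusted p of Psmd1 was 0.0935. With changes taken relative to the median of each table its interaction was 2.13 and the adjusted p 1. The call thus rested on the shift common to most peaks and on keeping Pgk1.

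No other member passed. An unadjusted p under 0.05 was found at 11 of 62 member pairs (17.7%) and at 14.5% of all matched peaks. All 13 proteasome pairs had values above 0, with a median of 0.86 and a range of 0.23 to 2.74, and 5 had an unadjusted p under 0.05. The 13 and the 5 both include the Psme2 region, a member by its name before PPx, which the table after PPx names Rnf31 (interaction 1.04). The second smallest p among members was that of Usp5, with an interaction of 1.18. Ube2f, which carries NEDD8, followed with 1.44, its genotype change being 0.76 after PPx and -0.68 before. Their adjusted p values were 0.309 and 0.312.

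**Figure D3:**
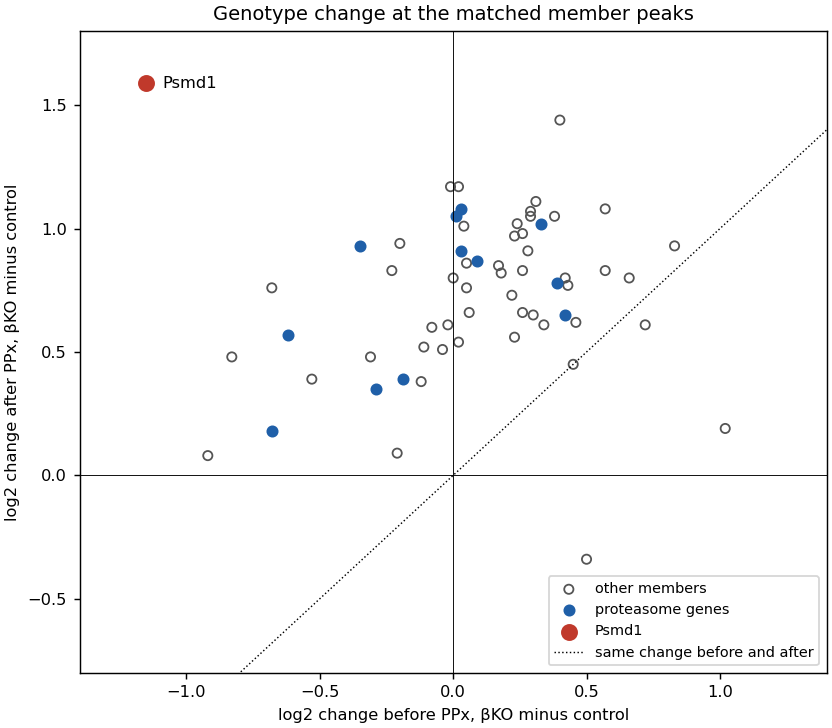
Genotype change (log2, βKO minus control) after PPx against the change before PPx at the 62 member peaks matched between the comparisons, with proteasome genes filled. Most points lie above the dotted line of equal change, and Psmd1 stands alone at the upper left with 1.59 after and -1.15 before PPx.

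In βKO islets, 10 of 98 member peaks were more accessible after PPx than before and none less. Among all 12767 peaks 7.44% were called higher after PPx and 0% lower. The members' median change was 0.875 and that of all peaks 0.83, and the rates of like peaks gave 8.73 calls. Relative to the table's median 0 members passed an adjusted p of 0.05, and 0% of all peaks did. This comparison shares its libraries after PPx with the comparison of genotypes after PPx, and so the calls below are not independent of those above.

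Nedd8 had the smallest FDR of all members. Its promoter had 4.44 after PPx and 1.75 before PPx in βKO islets, per the authors' deposited table, a change of 2.69 with an FDR of 0.0077. The change was 1.82 above that of like peaks. It was called in 4 of 4 libraries after and in 0 of 3 before PPx, so it was listed through libraries after PPx alone, as were 29.6% of members and 31.9% of all peaks, Psmd1 and the Usp18 peak below included. At an FDR threshold of 0.01 it was the 1 member called. In control islets the same region, which the authors' annotation there names Gmpr2, had 3.51 after and 3.46 before PPx in the authors' deposited table. The region was not among the peaks listed between genotypes before PPx.

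The proteasome took 5 of the 10 calls, of its 23 peaks, where the rates of like peaks gave 2.04. The median change over the 23 peaks was 0.90, only 0.01 above like peaks, and 13 of the 23 lay above like peaks. Psmd1 had 4.68 after and 2.76 before PPx in βKO islets, per the authors' deposited table (change 1.92, FDR 0.0230), with calls in 4 of 4 and 0 of 3 libraries. Psmd6 had 4.52 after and 3.02 before PPx in the authors' deposited table (change 1.51, FDR 0.0338). Psma3, of the α ring that gates the core, had 4.38 after and 3.04 before PPx in the authors' deposited table (change 1.34, FDR 0.0496). Psmc6 had 5.94 after and 4.77 before PPx in the authors' deposited table (change 1.17, FDR 0.0404), and Psmb1 had 5.29 after and 4.20 before (change 1.09, FDR 0.0457). All 23 proteasome peaks had values higher after PPx, as 97.1% of all peaks did.

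Cops7b had 5.63 after and 4.23 before PPx in the authors' deposited table (change 1.39, FDR 0.0332). Usp16, whose enzyme removes ubiquitin from histone H2A, had 5.48 after and 4.19 before PPx in the authors' deposited table (change 1.30, FDR 0.0360). Usp5 had 6.47 after and 5.23 before PPx in the authors' deposited table (change 1.24, FDR 0.0417). A distal peak named for Usp18, which removes the ubiquitin-like ISG15, had 4.18 after and 2.62 before PPx in the authors' deposited table (change 1.56, FDR 0.0468).

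No Ube2, Ube3 or cullin peak passed here, with 19, 3 and 3 peaks, where the rates of like peaks gave 2.07, 0.349 and 0.33. The smallest change in each group was 0.40 at Ube2g1, 0.55 at the Ube3c promoter and 0.66 at Cul4b. Elsewhere the smallest were 0.46 at Psma6, 0.68 at Psmc1, 0.44 at Psmd3, 0.58 at Cops4 and -0.32 at an intronic Usp25 peak, and none of these passed. The activator Psme4 had a change of 1.19 with an FDR of 0.0599. Of the genes outside the name rule 61 had a peak, with 70 peaks in all and a median change 0.03 above like peaks. Of these peaks 9, at 9 genes, were called higher and none lower, where 7.44% of all peaks were called higher. The cullin partners Keap1 (1.64), Fbxw11 (1.34), Skp2 (1.08) and Dcun1d4 (0.99), the deubiquitinases Tnfaip3 (1.47), Otud5 (1.44) and Cyld (1.14) and the ligase Huwe1 (1.15) were among them.

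In control islets, PPx changed no member past the threshold. Of 65 member peaks 0 were called, as were 0% of 8070 peaks in either direction. At an unadjusted p under 0.05, 2 of 65 members (3.08%) were higher after PPx and 0 lower, where 196 of 8070 peaks (2.43%) were higher and 8 lower. Relative to the median 0 members passed, against 0.0124% of all peaks. The median change was 0.19 over members and 0.16 over all peaks. Ube2e1 had 4.36 after and 3.63 before PPx in the authors' deposited table (change 0.73, p 0.0390, FDR 0.999). Usp35 had 4.58 after and 3.82 before PPx in the authors' deposited table (change 0.76, p 0.0485), and Usp14, a deubiquitinase of the proteasome, 3.89 after and 3.11 before (change 0.77, p 0.0596).

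The 5 members of smallest FDR between genotypes after PPx were also set side by side over the 4 groups. That choice fixes βKO above control islets after PPx, so their order is a description. Comparisons that have a group in common share its libraries, and their scales differ: at peaks of the same position, the level of βKO islets before PPx was a median of 0.23 higher in the table of genotypes than in that of times. Psmc6 differed little between the other 3 groups, at 4.89 in control islets after PPx, 5.19 in βKO islets before and 5.15 in control islets before PPx in the authors' deposited tables of genotypes, all under the 5.97 of βKO islets after PPx. In these groups and the authors' deposited tables Usp5 had 5.16, 5.52 and 5.53, Psmb1 had 4.26, 4.42 and 4.10, and Usp53 had 5.08, 5.35 and 5.06. Psmd1 departed from this order, with 3.09 in control islets after PPx, 2.93 in βKO islets before and 4.08 in control islets before PPx in the authors' deposited tables. In control islets its change with PPx was -0.66, at 3.24 after and 3.90 before PPx in the authors' deposited table, with an unadjusted p of 0.0938.

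**Figure D4:**
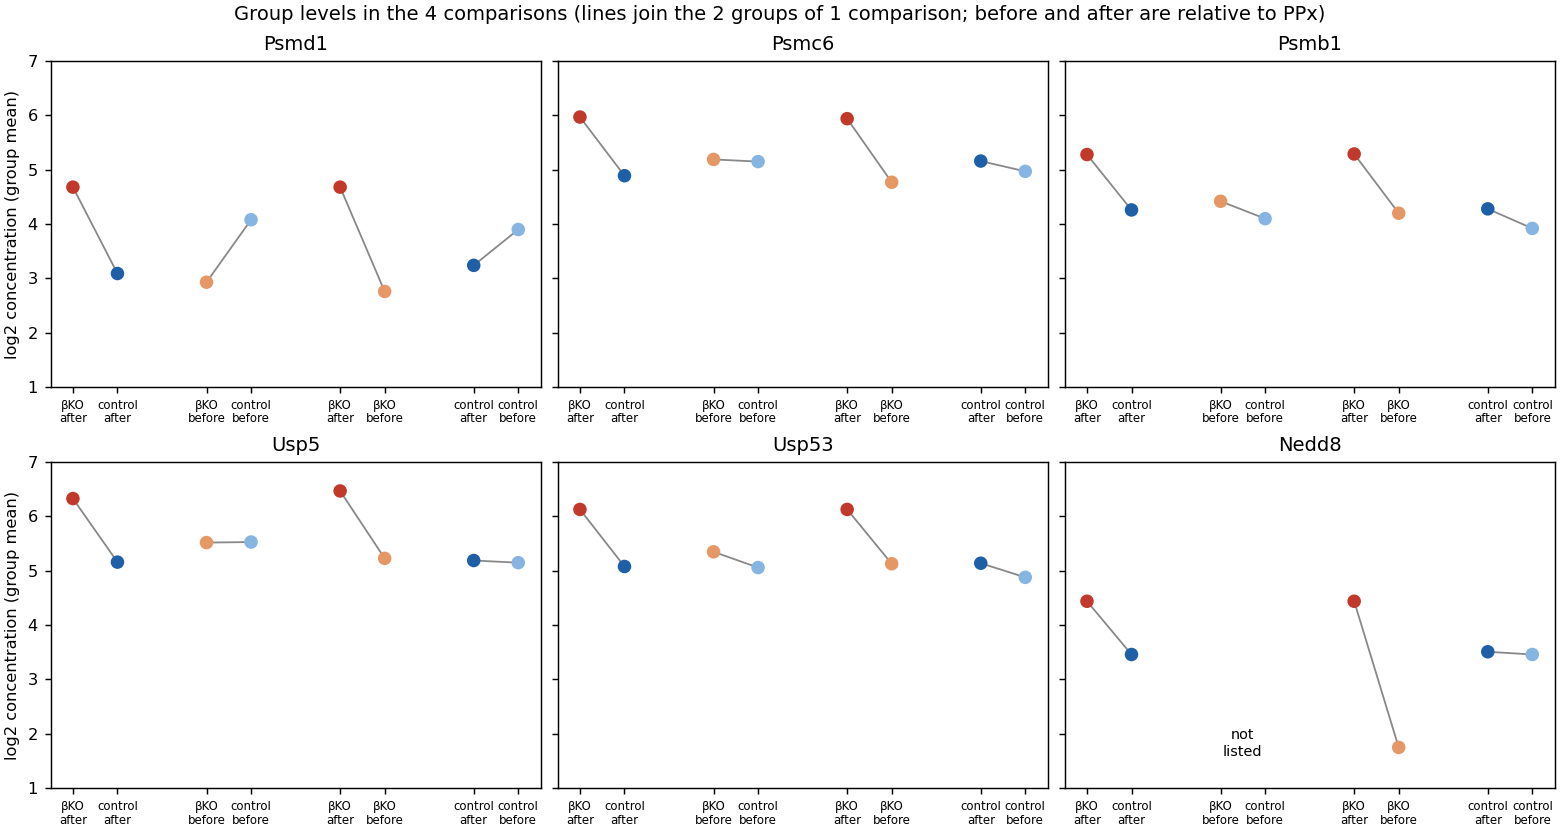
Group levels (log2 concentration) of 6 members in the 4 comparisons, each pair joined by a line. βKO islets after PPx (dark red) are the highest group for Psmc6, Psmb1, Usp5 and Usp53, with the others close together, while Psmd1 is also high in control islets before PPx (4.08 and 3.90) and Nedd8 is low in βKO islets before PPx (1.75).

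Listing and naming differed between the comparisons. Of the 105 member regions 52 were listed under a member name in all 4 comparisons, 18 in 3, 31 in 2 and 4 in 1. The region of Psme2, an activator subunit gene, was named Rnf31 in both comparisons with βKO islets after PPx and so fell outside the name rule there. It had 5.57 in βKO islets and 4.52 in control islets after PPx, per the authors' deposited table, with an FDR of 0.0320. Before PPx, under the name Psme2, it had 4.92 in βKO islets and 4.92 in control islets in the authors' deposited table. Counts of the activators therefore depend on which of the neighbouring genes the annotation picked.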

How the data were processed

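Per the submitters' processing notes, cutadapt, BWA, MACS, DiffBind and ChIPseeker were used with mm10 (GRCm38). Versions, order, settings and any Tn5 offset were not given in the sources used here. Each library came from 40000 islet cells, transposed at 37 °C for 30 min and read as single ends of 75 bp. The 4 deposited tables hold, per the file headers, for every peak a log2 concentration of both groups, a log2 fold, a p-value, an FDR and the count of libraries in which the authors called it. The deposited fold subtracts βKO from control or after from before, so it was multiplied by -1 here. Rows repeating a position were counted once, and 1 empty row was dropped.

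Tables were read with Python 3.11.15, pandas 2.3.3, numpy 2.4.6 and scipy 1.17.1. A standard error came from each change and p-value, or from the median of 20 concentration bins where p was 0.5 or more or the change under 0.1. From it came approximate normal tests of a change against its table's median, and of the genotype by PPx interaction at peaks sharing at least 1 bp, with Benjamini-Hochberg adjustment over the table or the matched peaks. These steps were run on simulated data, but there the interaction was taken relative to the table medians. The interaction as reported here, without that centring, was not simulated. Like peaks share 1 of 10 concentration bins and the annotation class.

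Named genes were, after PPx between genotypes and in βKO islets between times, members past FDR 0.05 (at most the 4 of largest change in a gene group) and the smallest change of each gene group. In the other comparisons they were the 3 members of smallest p. Nedd8, genes with several positions, and at most 4 called genes per further pathway list were added. Some genes that this rule names are not reported here. Members and lists were chosen with earlier results of these data known. The alternatives were other FDR thresholds, adjustments, filters, member lists, medians and overlaps. Gene names and coordinates are those of the authors' annotation.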

Additional observations from a re-analysis of the deposited data

Results flagged for a closer look

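At the Psmd1 promoter the genotype change differed between the times, with an interaction of 2.74 on the log2 scale (standard error 0.627). The change was 1.59 after PPx and -1.15 before PPx. Between these times 4 and 3 βKO mice were set against 4 and 4 control mice, and no mouse entered both comparisons. The adjusted p was 0.0467 over all matched peaks, 0.0935 without peaks whose p-value and change conflict, and 1 with changes relative to the table medians. The libraries with a called peak were 4 of 4 βKO and 0 of 4 control after PPx, and 0 of 3 βKO and 2 of 4 control before PPx. The peak was therefore listed through βKO libraries alone after PPx and through control libraries alone before PPx, as were 67 of 7504 matched peaks. Listing of this kind favours opposite changes, so the counts of libraries add no support.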

How the results depend on the processing

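At an FDR threshold of 0.01 the members called higher were 0 between genotypes after PPx and 1 in βKO islets between times, and at 0.1 they were 38 and 35. Adjustment of the deposited p-values over all listed peaks called 9 members between genotypes after PPx, and 8 of the 17 stayed past the threshold. Psmd1, Usp5, Psmc6, Psmb1, Usp53, Ube3a, Ube2ql1 and Usp33 stayed, and Psmd6 missed it at 0.0510. In βKO islets between times 7 of 10 stayed, without Psma3, Usp18 and Psmb1. The interaction count of 1 became 0 with changes relative to each table's median, and 0 without peaks whose p-value and change conflict. That second setting and the counts without Usp6nl and Ube2d-ps were added after seeing the data. Of 151 alternative values 130 kept direction and side of the threshold or stayed within the limits for counts and medians, 7 moved, 14 were weaker and 0 turned round. No paired analysis was possible because the tables hold group values only, and replicates could not be left out for the same reason. The limits are the unknown depth of each library, the group of 3 mice, the errors derived from rounded p-values, and listing rules that leave out weak peaks.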
